A study of Mus musculus with 82 samples.

Results

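The Pitpnc1-Bptf hotspot is the 1 Mb of mouse chromosome 11 that begins at position 107000001 (mm10, GRCm38), the window with the most Adnp peaks on a 1 Mb grid over the genome. It was chosen by its number of Adnp peaks, so that number and every other property of its Adnp peaks are given as a description without a test. The 7 genes described are Bptf, Nol11, Pitpnc1, Psmd12, Helz, Cacng1 and Cacng4, of 49214 genes used in all. The window held 64 of the 15009 Adnp peaks on chromosomes 1 to 19 and X (0.426%) and 2 of the 2000 HP1γ peaks. The next window, on chromosome 4, held 57 Adnp peaks.

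The study profiled mouse embryonic stem cells of a hybrid 129-C57BL/6 background, grown in 2i medium with LIF, by ChIP-seq, RNA-seq and ATAC-seq. The 2 peak lists used here come from its ChIP-seq of proteins carrying a FlagAvi tag, captured on streptavidin beads. The Adnp list is tied to 3 replicates of Adnp FlagAvi cells, labelled wild type apart from the tag and untreated. The HP1γ list, described as lacking the Adnp motif, belongs to 3 replicates of Cbx3 FlagAvi cells with an Adnp knockout and 3 replicates of Cbx3 FlagAvi cells without it, all untreated. Each list is pooled over its replicates, so no value has a spread between replicates, and read depth is unknown. The names of the HP1γ peaks carry the label of the Adnp knockout, and whether a peak was also seen without the knockout is not given in the sources used here.

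Adnp is a zinc finger and homeodomain protein that forms the ChAHP complex with the remodeller Chd4 and an HP1 protein. Adnp brings the complex to DNA by sequence, and HP1γ, encoded by Cbx3, is a chromatin protein best known for binding methylated histone H3 lysine 9. In mouse cells many Adnp sites are known to lie in short interspersed repeats, and loss of Adnp is known to release lineage genes in embryonic stem cells.

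The Adnp peaks of the hotspot lay mainly between protein-coding genes, and most of those stood in the intervals next to the starts of Bptf and Helz. The bodies of most of its genes held none, but that of Pitpnc1 held 18. Between protein-coding genes lay 43 of the 64 peaks, at 16.5 peaks per 100 kb over 260 kb, and in protein-coding genes 21, at 2.84 per 100 kb over 740 kb. Over all of chromosomes 1 to 19 and X the order was the other way round, with 0.498 peaks per 100 kb between protein-coding genes and 0.713 in them. Of the hotspot peaks, 32.8% overlapped a protein-coding gene (95% Wilson interval 22.6% to 45.0%), against 49.6% (48.8% to 50.4%) of all listed peaks. These intervals cover counting error only, and neighbouring peaks are not independent.

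**Figure D1:**
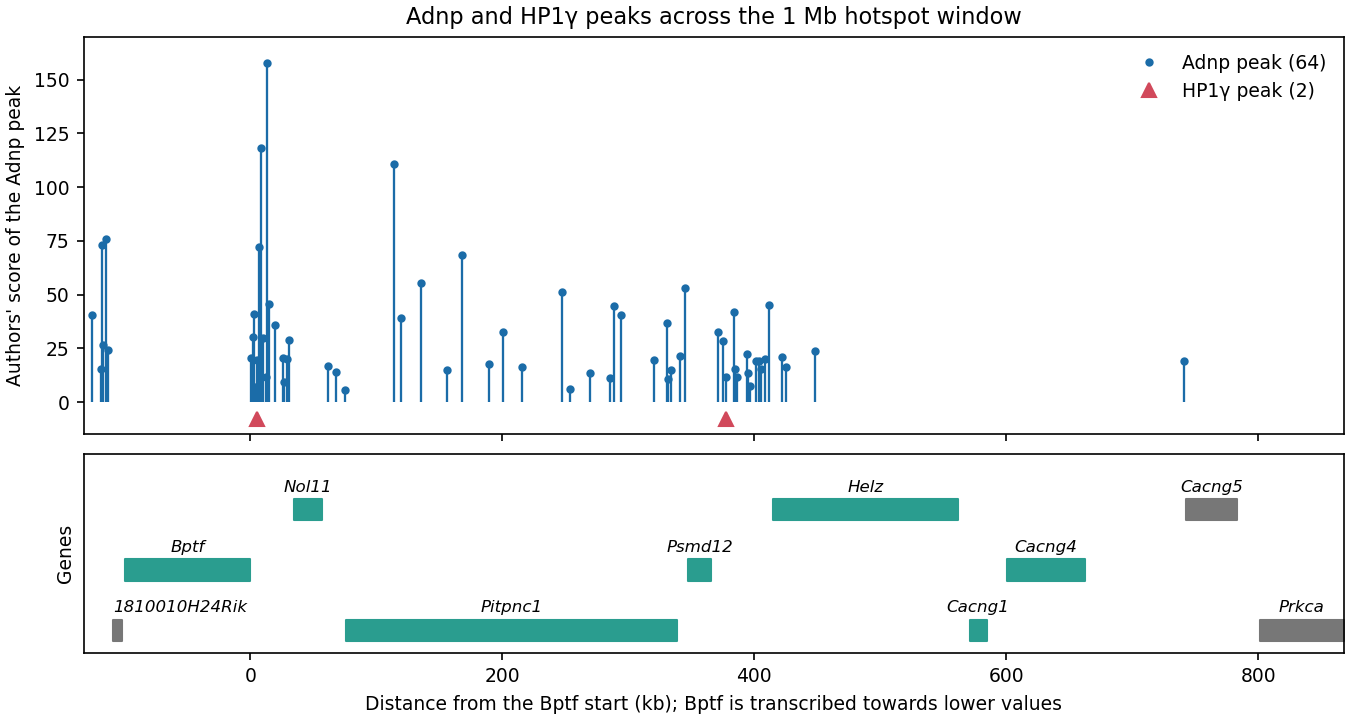
Adnp peaks (blue, height is the authors' score) and HP1γ peaks (red triangles) across the window, by distance in kb from the Bptf start, with member genes in green and other protein-coding genes in grey below. The peaks crowd just above the Bptf start and before Helz, are spaced out over Pitpnc1, and a single peak, beside Cacng5, lies beyond those in Helz.

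Bptf, the large subunit of the NURF chromatin remodelling complex and a reader of methylated histone H3, spans 107033081 to 107132147 on the minus strand, so its start is the upper end. None of the 64 peaks lay in its 99.1 kb. The first peak beyond its start, at 107132206 to 107132527 with a score of 20.3, began 59 bp upstream of the start. Counting the gene starts that have a promoter window in RefSeq, it was the single peak of the hotspot within 1 kb of a start (1.56%, 95% Wilson interval 0.276% to 8.33%), where 5.58% of all listed peaks lay that near one. Genes without such a window are not in that count, among them the tRNA gene n-TRccg1 and the lncRNA gene A830035A12Rik. The tRNA gene has a listed peak 186 bp beyond its upper end and none within 1 kb on the other side. The lncRNA gene has listed peaks within 1 kb of each end. The peak next to the Bptf start also made Bptf the single member, of the 5 with a promoter window in RefSeq, whose window overlapped an Adnp peak. Of all promoter windows on the chromosomes used, 0.981% did so.

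The Bptf promoter is shown because it is where the densest group of peaks meets a gene. It spans 107132098 to 107132397 on the minus strand of GRCm38.p6 chromosome 11, from 250 bases before to 50 after the start, and the capitals mark the 192 bases under the Adnp peak.
Bptf promoter (RefSeq, 5′ to 3′): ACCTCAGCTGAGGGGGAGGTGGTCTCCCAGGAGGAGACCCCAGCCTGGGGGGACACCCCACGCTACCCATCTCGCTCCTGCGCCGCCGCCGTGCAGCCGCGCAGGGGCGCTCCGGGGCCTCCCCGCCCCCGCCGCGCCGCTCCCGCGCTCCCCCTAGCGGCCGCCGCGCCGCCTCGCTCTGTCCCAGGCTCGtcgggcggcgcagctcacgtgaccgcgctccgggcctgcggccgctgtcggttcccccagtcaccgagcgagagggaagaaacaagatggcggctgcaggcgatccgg
The window was rich in CG pairs, with 39 against a median of 7 over the 32851 windows of the table, and 95.6% of windows had fewer. It held the word CACGTG (7.15% of all windows), 43 bases before the start and outside the peak. It held neither TATAAA (13.6% of all windows) nor GCCCTCT (8.32%), a word like those in the reported Adnp motif. Each word was searched on both strands in these exact letters, so other forms of the motif were not looked for. The window holds 192 of the 322 bp of the peak, and the rest of the peak was not searched. A word is a description of these letters and not a bound site.

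Upstream of Bptf, towards Nol11, stood the largest run of Adnp peaks in the whole list. With peaks joined where at most 10 kb lay between them, it held 17 peaks over 30.7 kb, from 107132206 to 107162864, at 5.54 peaks per 10 kb. The next run in the list, with 14 peaks, lay in the same window, and the largest elsewhere held 13. The run had a median gap of 0.711 kb, the shortest gap was 93 bp and the longest 5.57 kb, and peaks covered 32.7% of it. Its interval between Bptf and Nol11 reached 49.3 peaks per 100 kb, the highest of the window.

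The scores, which are the authors' own and of a kind not stated, varied widely within this run. The lowest were 6.68, at 107136169 to 107136746, and 7.03, at 107135717 to 107135985. The highest was 158, at 107145180 to 107145807, followed by 118 at 107140122 to 107141384, which was also the widest peak of the hotspot with 1263 bp. The 2 highest peaks began 13.0 and 7.97 kb upstream of the Bptf start, and the peak nearest the start was not among the high ones. The median score of the run was 29.1, against 21.2 over the list, and 9 of its 17 peaks lay at or above that list median.

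**Figure D2:**
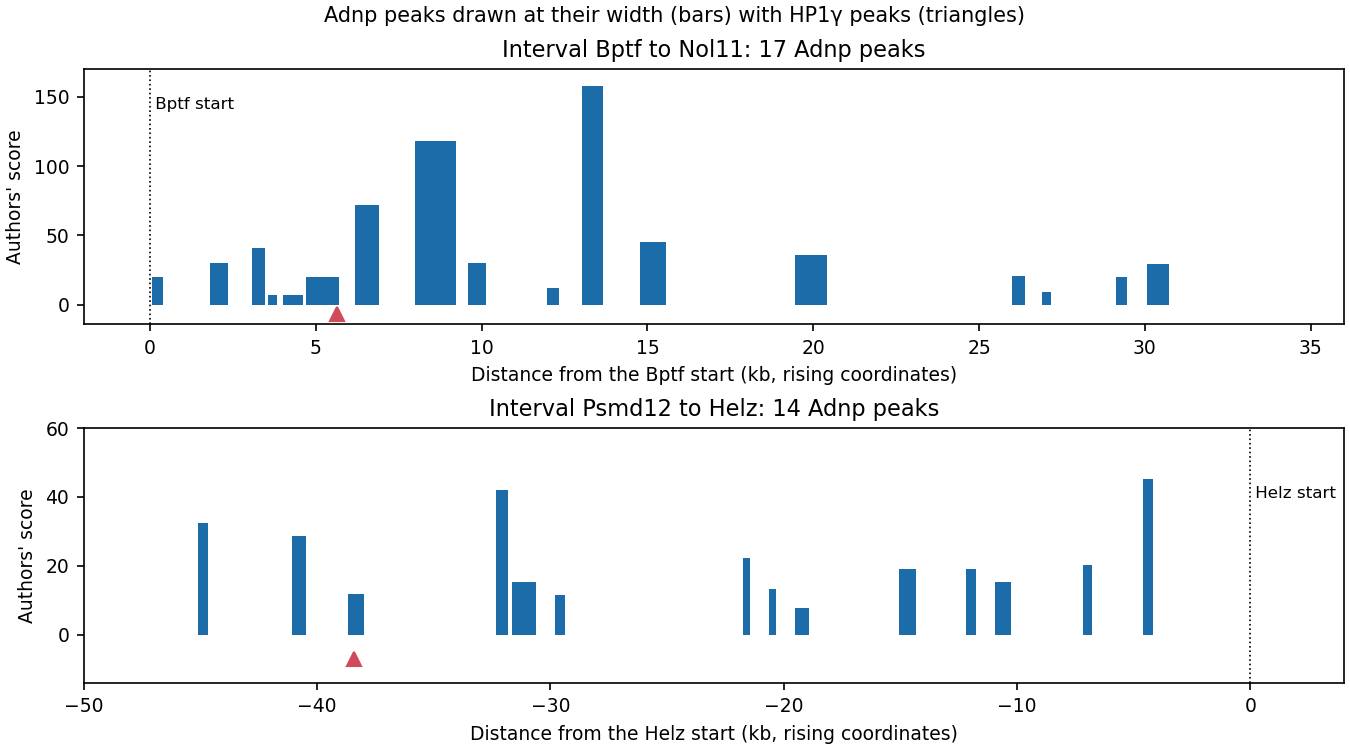
Adnp peaks of the interval from Bptf to Nol11 (upper panel) and from Psmd12 to Helz (lower panel), drawn at their width by distance in kb from the Bptf and Helz starts, with the authors' score as height and HP1γ peaks as triangles. The 17 upper peaks begin at the Bptf start and reach a score of 158, and the 14 lower peaks stop 4.18 kb before the Helz start with a highest score of 45.2.

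Nol11, a nucleolar protein of the machinery that makes small ribosomal subunits, spans 107166651 to 107189381 on the minus strand and held no peak of either list. The lncRNA gene Gm11715 (107157408 to 107167125), which reaches into Nol11 at its upper end, held 4 peaks of the run. The nearest peaks to Nol11 lay 3.79 kb from its lower end and 3.92 kb from its start. Between Nol11 and Pitpnc1 stood 3 peaks, all in the lncRNA gene Gm39425, spaced evenly with gaps of 6.49 and 6.53 kb. Their scores of 16.7, 14.1 and 5.54 were all below the list median, and the last is the lowest score of the hotspot.

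Pitpnc1 encodes a cytoplasmic protein that carries phosphatidylinositol and phosphatidic acid between membranes. It spans 107207892 to 107470720 on the minus strand and, at 263 kb, is the longest of the members. It held 18 Adnp peaks, 6.85 per 100 kb, which made it the third gene of the genome by number of peaks. Among the 2425 protein-coding genes of 100 kb or more it ranked sixth by peaks per 100 kb, and 54.9% of those genes had none. No HP1γ peak lay in it.

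The peaks of Pitpnc1 were spread along the gene rather than packed. Their median gap was 12.1 kb, with a range of 0.167 to 30.9 kb, against 0.711 kb upstream of Bptf. Relative to their mean, the gaps varied less in Pitpnc1 (coefficient of variation 0.687) than upstream of Bptf (1.16). With the gene cut into 3 equal parts, the part farthest from the start held 4 peaks, the middle part 5 and the part with the start 9. The 38.3 kb between 107207274 and 107245589, at the far end of the gene, held no peak. At the other side of that stretch stood the highest peak of the gene, at 107245590 to 107246035 with a score of 111. Next came 68.5 at 107300275 to 107300722 and 55.4 at 107267551 to 107268029. The lowest score in the gene was 6.26 and the median 26.1. All 18 peaks were under 600 bp wide, with widths of 283 to 593 bp, and none overlapped the lncRNA genes Gm11716, Gm11713 and Gm11714 within it. The peak nearest to the Pitpnc1 start lay outside the gene, 2.61 kb upstream of it.

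Psmd12, a non-ATPase subunit of the 19S particle that caps the proteasome, spans 107479528 to 107498036 on the plus strand and held no peak of either list. The 8.81 kb between the starts of Pitpnc1 and Psmd12, which are transcribed away from each other, held 2 Adnp peaks. The higher, at 107476834 to 107477283 with a score of 53.0, lay 2.25 kb upstream of the Psmd12 start.

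Helz encodes an RNA helicase with a zinc finger that takes part in mRNA turnover. It spans 107546963 to 107693826 on the plus strand. The RefSeq promoter window places its start at 107547933, inside that span. Before it, towards Psmd12, stood the second largest run of the list, with 14 peaks over 40.9 kb from 107502826 to 107543753. This run was looser than the one upstream of Bptf, with a median gap of 2.16 kb and 18.6% of its length under peaks. Its scores were lower, with a median of 19.1 and a highest value of 45.2, and 5 of its 14 peaks reached the list median. The peak with the highest score was also the nearest to Helz, ending 4.18 kb before the start. The lncRNA gene A830035A12Rik, within the run, held 3 of its peaks.

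Inside Helz lay 3 peaks, all near its lower end, with scores of 20.9, 16.1 and 23.7 and widths of 582, 489 and 689 bp. After the last of them, at 107579803 to 107580491, no Adnp peak followed for 292 kb. The greater part of Helz, all of Cacng1 and all of Cacng4 lay in this empty stretch. Of all gaps between neighbouring Adnp peaks on the chromosomes used, 9.61% were at least as long.

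Cacng1, a subunit of the calcium channel of skeletal muscle (107703218 to 107716476), and Cacng4, an auxiliary subunit of AMPA receptors (107732357 to 107794706), held no peak of either list. The nearest Adnp peaks lay 123 kb from the lower end of Cacng1 and 78.1 kb from the upper end of Cacng4. The single peak in the last 4 bins of 100 kb of the window, at 107872835 to 107873181 with a score of 19, lay 1.42 kb from the lower end of Cacng5, the next gene of the same family.

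**Figure D3:**
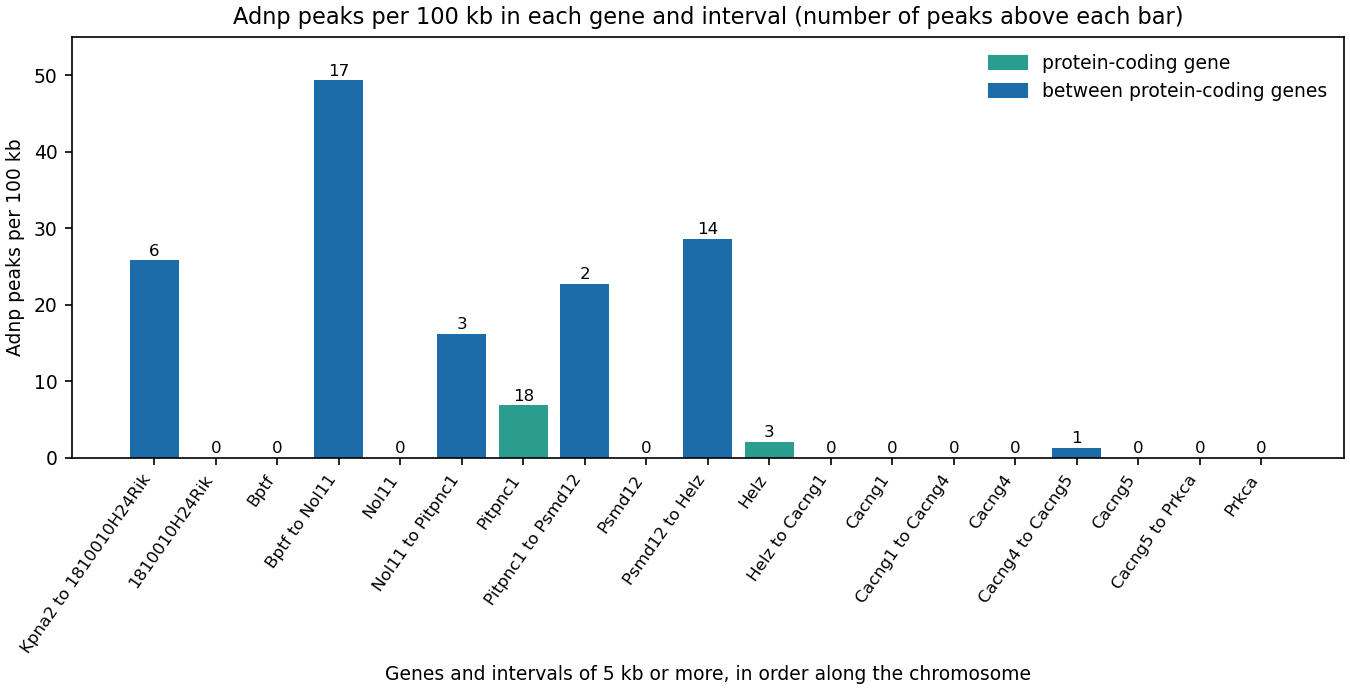
Adnp peaks per 100 kb in each protein-coding gene (green) and each interval between them (blue) of at least 5 kb, in order along the chromosome, with the number of peaks above each bar. The interval from Bptf to Nol11 reaches 49.3 per 100 kb, while Bptf, Nol11, Psmd12, Cacng1 and Cacng4 are at 0.

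In counts over the members, 2 of the 7 had an Adnp peak inside, where 20.7% of all protein-coding genes did, and 5 had a peak within 5 kb of an end, where 19.3% did. The window was chosen by the same peaks, so nothing is read from either count. The members near a peak were Bptf with 6 such peaks, Pitpnc1 with 3, Nol11 and Psmd12 with 2 each, and Helz with 1. With a distance of 1 kb, Bptf and Pitpnc1 were left. Of the 18 other annotated genes in the window, 4 held an Adnp peak, all lncRNA genes. These were Gm11715 with 4, Gm39425 and A830035A12Rik with 3 each, and Gm39424 with 1.

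A smaller group opened the window, between Kpna2, an importin gene, and 1810010H24Rik. It held 6 peaks from 107006022 to 107019261, the highest with a score of 75.7 at 107017386 to 107017824. A peak at 107013124 to 107013477 with a score of 15.4 began 186 bp beyond the tRNA gene n-TRccg1 (107012866 to 107012938). Between this group and the Bptf start, the whole of Bptf included, 113 kb held no peak. This was the second longest gap between neighbouring peaks of the window.

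The window held 2 HP1γ peaks, and both lay on Adnp peaks of the 2 large runs. The HP1γ list is described as lacking the Adnp motif, so HP1γ counts here do not cover peaks with that motif. The HP1γ peak at 107137658 to 107137888 began 5.51 kb upstream of the Bptf start. It shared 187 bp, 81.0% of its 231 bp, with the Adnp peak at 107136840 to 107137844, which had a score of 19.7. The HP1γ peak at 107509350 to 107509671 lay wholly within the Adnp peak at 107509255 to 107509962, with a score of 11.8, in the run before Helz. Both Adnp peaks were wide, with 1005 and 708 bp, and both scores were below the list median.

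Of HP1γ peaks, 2 of 2 in the hotspot overlapped an Adnp peak (95% Wilson interval 34.2% to 100%), where 15.2% of all HP1γ peaks did. With 2 peaks, no difference is drawn from that share. The window's 2 HP1γ peaks stand beside a mean of 0.78 per window, and 17.6% of windows held at least as many. None of the 7 members held an HP1γ peak inside, where 2.86% of protein-coding genes did, and none had one within 5 kb of an end, where 2.04% did. Bptf came nearest, with the peak named above. The neighbouring HP1γ peaks on the chromosome lay 630 kb before the first and 2.39 Mb after the second.

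Taken as a whole, the hotspot peaks were closer together and wider than listed peaks in general, with like scores. The median gap to the next peak was 3.1 kb in the hotspot and 29.4 kb over all chromosomes. Gaps of 5 kb or less made up 55.6% in the hotspot and 17.3% over all. The window was chosen by its number of peaks, so short gaps were built into the choice. The median width was 449 bp (quartiles 377 and 596 bp) in the hotspot and 396 bp (328 and 481 bp) over all.

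Peaks of 600 bp or more were 16 of the 64 (25%, 16.0% to 36.8%), against 10.4% (9.88% to 10.9%) of the list. Of these wide peaks, 13 stood in the 2 large runs, 7 upstream of Bptf and 6 before Helz. Neighbouring peaks are not independent, so the intervals on the shares of wide peaks cover counting error only. The median score was 20.7 in the hotspot and 21.2 over the list, and 48.4% of hotspot peaks reached the list median. Across the 64 peaks, width and score went together less closely (Spearman's rho 0.31) than across the 15009 peaks (0.555), a description over peaks that share the same libraries.

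**Figure D4:**
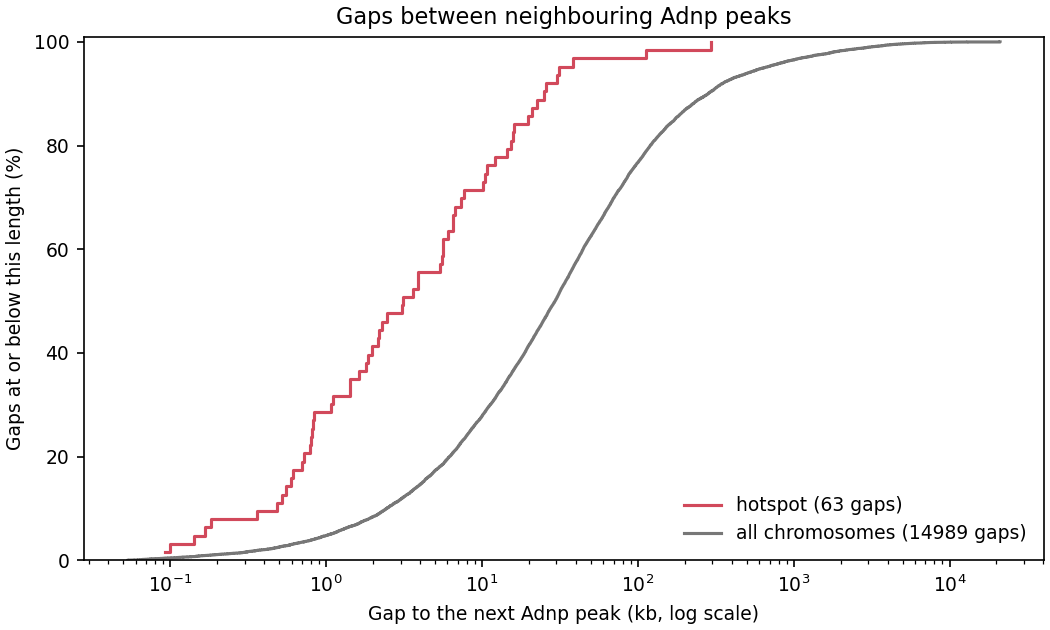
Share of gaps between neighbouring Adnp peaks at or below each length (kb, log scale) for the hotspot (red, 63 gaps) and all chromosomes (grey, 14989 gaps). The hotspot curve lies to the left of the other over most lengths, with medians of 3.1 and 29.4 kb.

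Within the window the peaks were uneven. The 100 kb bins from the lowest to the highest coordinates held 6, 18, 6, 6, 10, 17, 0, 0, 1 and 0 peaks. The 2 fullest, with 18 and 17 peaks, were the 2 fullest of all 25549 bins, and the fullest bin elsewhere held 16. A peak was present in 7 of the 10 bins, where 25.7% of all bins had one. The 2 large runs together held 31 of the 64 peaks (48.4%) in 71.6 kb. Counted with peaks within 10 kb joined, the window held 19 regions and fell to rank 63 among the 2564 windows. Without the run upstream of Bptf, a setting added after the data were seen, 47 peaks were left and the window ranked 9.

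The 4 windows next in number of Adnp peaks were more even. They are named Epb41-Eya3 (chromosome 4), Mllt6-Pcgf2 (chromosome 11), Cdkn1a-Pim1 (chromosome 17) and Msi1-Cit (chromosome 5), and held 57, 56, 55 and 51 peaks. None of their 100 kb bins was empty, against 3 in the hotspot. Their fullest bins held 10 or 11 peaks against 18, and their largest runs 7 or 8 against 17. Their median widths were 381, 449, 444 and 462 bp against 449 bp, so 3 of the 4 were about as wide as the hotspot peaks. The share of peaks in protein-coding genes was 36.8%, 42.9%, 38.2% and 54.9% against 32.8%, below the 49.6% of the list in 3 of the 4 as well. The share of peaks within 1 kb of a gene start was 10.5%, 3.57%, 5.45% and 3.92% against 1.56%, with 5.58% over the list. Their median gaps were 7.39, 7.24, 13.0 and 8.62 kb against 3.1 kb. The hotspot also had the fewest protein-coding genes, with 10 against 23, 28, 18 and 23. Each is a single window from the same list, so these differences have no test.

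**Figure D5:**
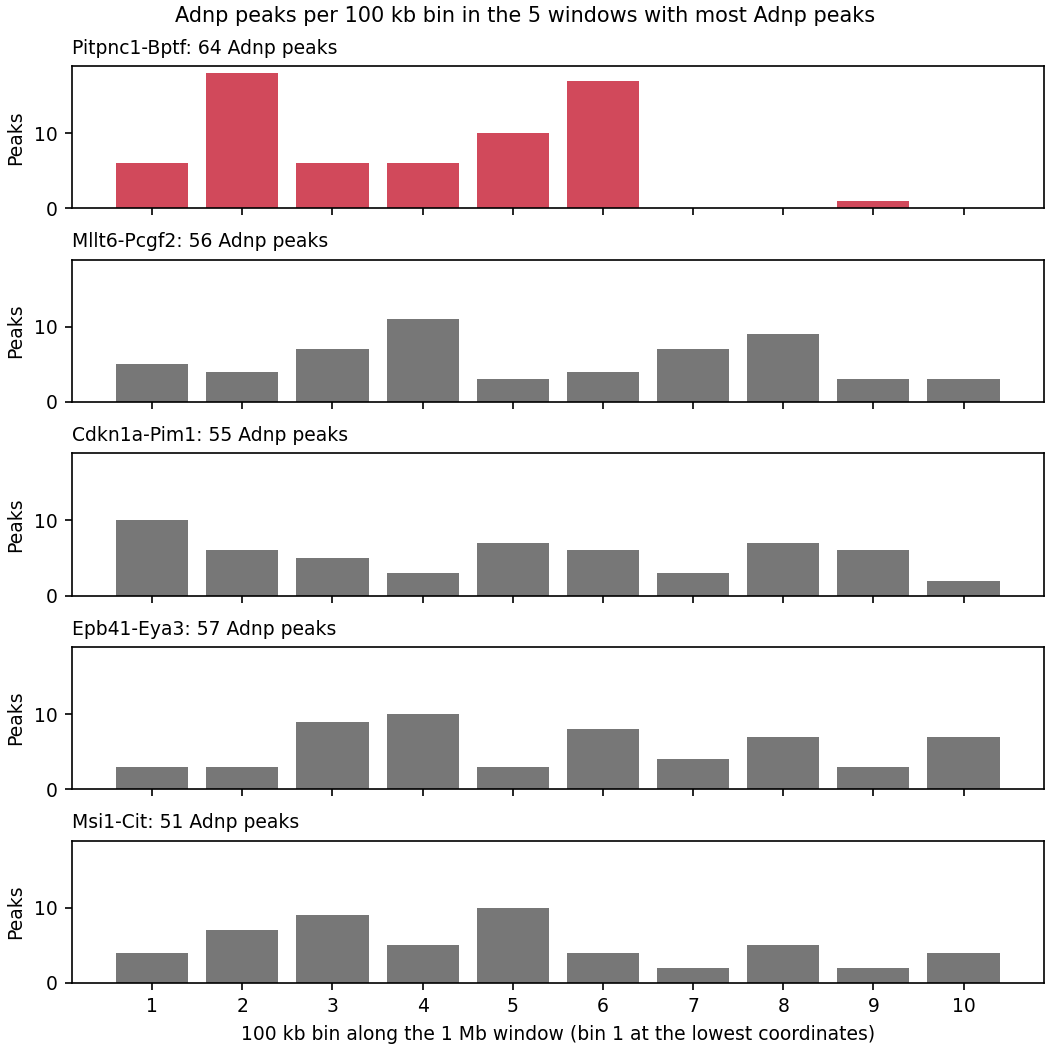
Adnp peaks in each 100 kb bin of the hotspot (red, top) and of the other 4 windows with most Adnp peaks (grey). The hotspot has bins of 18 and 17 peaks and 3 empty bins, while no bin of the other windows is empty or holds more than 11.

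Relatives of the members were read beside all protein-coding genes, of which 20.7% had an Adnp peak inside and 19.3% had one within 5 kb of an end. Of the other phosphatidylinositol transfer protein genes, 1 of 5 had a peak inside, Pitpna with a single peak, and Pitpnm1 had 1 within 5 kb of an end. Of the other NURF and ISWI genes, 2 of 5 had peaks inside, Hmgxb4 and Rbbp7 with 2 each. In the calcium channel gamma family, Cacng2 and Cacng7 had 1 each among the 6 others, which include Cacng5 of the same window. None of the 6 other genes of the early ribosome assembly group of Nol11 had a peak inside, and Utp18 had 1 within 5 kb of an end.

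Of the other 17 genes of the proteasome cap, 5 had a peak inside and 5 had a peak within 5 kb of an end. Psmd1 held 3, Psmd11 held 2 with a best nearby score of 71.9, and Psmd4 held 1. Psmd7, with none inside, had a peak of score 41.9 near an end. Among 9 helicase relatives of Helz, 3 had a peak inside, Upf1 with a score of 21.5 and Dna2 with 15.3 among them, and 4 had a peak within 5 kb of an end. The lists are small and no test was made, so no list is set apart from the shares over all protein-coding genes.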

How the data were processed

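The members and lists were chosen with earlier results of these data known. The submitters' processing notes name MACS2, Bowtie 1.0.0, edgeR, bcl2fastq 1.17, STAR 2.5.0a and the build mm10 (GRCm38), with no roles. How peaks were called and filtered is not given in the sources used here. Both peak lists were deposited pooled over replicates, with no counts. The deposited score of each Adnp peak is of a kind not stated and serves here for description and ranking within that list. In the HP1γ list it is 0 throughout.

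Starts were read as BED positions and printed from base 1. Genes, on chromosomes 1 to 19 and X from 3 Mb onwards, came from the GRCm38.p6 RefSeq table, with 21523 protein-coding. That table has no strand. Strands and starts came from the RefSeq promoter windows, which cover 5 of the 7 members, and Cacng1 and Cacng4 have none. A peak was inside a gene with at least 1 bp of overlap, and between genes by its centre. Runs joined peaks with at most 10 kb between them. Windows of 1 Mb and bins of 100 kb followed a fixed grid. Named genes were the members, genes of the window with a peak, and up to 4 per family list by number of peaks, and some of the genes so chosen are not reported here. No test was planned or made, since the lists are pooled. A planned protein comparison was not made. Interval functions were tested on simulated data. Computations used pandas 2.3.3, SciPy 1.17.1 and NumPy 2.4.6 under Python 3.11.15, with plots by matplotlib 3.10.9.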

Additional observations from a re-analysis of the deposited data

How the results depend on the processing

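No paired analysis was possible because both lists are pooled over replicates, and no replicate could be left out. Of 28 settings for the window as a whole, 12 moved a value by more than 1.5 times. With Adnp peaks at or above the list's median score, the window held 31 peaks and ranked 2, its 2 largest runs held 9 and 5 peaks, the median gap was 7.92 kb and the longest stretch between peaks was 115 kb, since the peak that closes the 292 kb stretch was no longer listed. The largest run ranked first in the list under all 3 settings tried. Moving the window 0.5 Mb higher left 18 Adnp peaks and 1 HP1γ peak. A window 0.5 Mb lower also held 64 and 2, but not the same peaks. It lost the run before Helz, which begins at 107502826, and gained Adnp peaks that lie before the hotspot. It also lost the HP1γ peak at 107509350 to 107509671 and gained that at 106507061 to 106507344. The unmoved window ranked 63 with peaks within 10 kb joined and 9 without the run upstream of Bptf. With joining at 5 kb, the second largest run held 8 peaks. With gene ends of 1 kb, 2 members had a peak near an end. Of 21 settings for single genes, 5 moved by more than 1.5 times. Depth is unknown, so a stretch without listed peaks is not shown to lack binding.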

Other observations

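Beyond Cacng5 the chromosome stayed empty of listed Adnp peaks. Prkca, which encodes protein kinase C alpha and spans 107933387 to 108343888, held none in its 411 kb. The next listed peak, at 108939558 to 108940077, lay 1.07 Mb after the last peak of the hotspot, and the following 1 Mb window held 1 Adnp peak, where the window before the hotspot held 24. Long genes without a peak were common, as 208 of the 352 protein-coding genes of at least 400 kb had none.

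Among the genes of at least 100 kb with an Adnp density near that of Pitpnc1 were Rbpms, Dnah10, Acacb and 2900026A02Rik. Rbpms, an RNA-binding protein gene on chromosome 8, held 10 peaks at 6.79 per 100 kb. Dnah10, Acacb and 2900026A02Rik held 8 each, at 7.32, 7.66 and 5.93 per 100 kb. These 4 genes were shorter than Pitpnc1, with lengths of 104 to 147 kb.

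The names of the Adnp peaks carry numbers that rise with position on every chromosome used. The hotspot held 64 of the 90 numbers between its first and last peak (71.1%). Over all chromosomes, 48.3% of the numbers were listed. In the 4 next windows by number of Adnp peaks, 62.6%, 58.3%, 50.9% and 63.0% were. All these windows were chosen by their listed Adnp peaks, which this share also counts, so nothing is read from its height. In the 292 kb stretch over Cacng1 and Cacng4, 1 number was missing, and in the 113 kb stretch over Bptf 4 were missing. What the missing numbers stood for is not given in the sources used here.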
